A study of Mus musculus with 12 samples.

Results

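The genes described here encode the precursor proteins of the cornified envelope, the protein shell that replaces the plasma membrane of the dead cells at the skin surface. They were taken as the protein-coding genes of the GENCODE M21 mouse annotation whose symbols start with Lce or Sprr followed by a digit, together with Flg, Flg2, Hrnr, Lor, Ivl, Rptn and Crnn. The rule gave 43 genes of the 53379 gene IDs in the count files, and all 43 lie within 1.32 Mb of chromosome 3 (GRCm38, 92080271 to 93399442). By family they are Lor, Ivl, 11 Sprr2 genes, 2 Sprr1 genes, Sprr3 and Sprr4, 14 Lce1 genes, 6 Lce3 genes, Lce6a, and 5 genes of the S100-fused type (Flg, Flg2, Hrnr, Rptn and Crnn). Sprr2j-ps counts among them because the annotation lists it as protein-coding despite its name.

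Envelope precursors are made late in keratinocyte differentiation and are joined to each other by transglutaminases, calcium-dependent enzymes that form bonds between glutamine and lysine side chains. Involucrin forms the early scaffold under the membrane, loricrin supplies much of the mass, small proline-rich (SPRR) proteins act as cross-bridges, and late cornified envelope (LCE) proteins are added last. Filaggrin and its S100-fused relatives start with calcium-binding EF hands followed by long repeats. Filaggrin itself bundles keratin filaments before it is cut into free amino acids that hold water in the surface layer. In human skin, SPRR and LCE3 genes are known for high expression after barrier damage and in psoriasis.

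RNA from whole skin was counted in 12 libraries in 4 groups of 3, from mice of strain C57BL/6 & B6D2 aged 3 months. The groups are Nf1-KO injured, control injured, Nf1-KO uninjured and control uninjured, with injured skin taken 14 days after injury. All mice carried Prss56Cre, a Cre recombinase expressed from the Prss56 locus, and the R26tdTom reporter. Nf1-KO mice also had 1 floxed and 1 null allele of Nf1 (Nf1flox/-). Cre thus acts in the Prss56 lineage, which the series title names as boundary cap cells, while the null allele is present in every cell of the Nf1-KO mice. Nf1 encodes neurofibromin, which switches RAS off. The labels number the samples of a group without saying that each is a separate animal, so the p-values reflect how these samples vary, and that variation may be technical.

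Levels are TMM-normalised CPM, that is, counts relative to the library total adjusted for composition, a scale that does not correct for transcript length, and library totals ran from 8817013 to 16809687 counts. Nf1 stood at 10.6, 8.75 and 15.8 CPM in Nf1-KO injured libraries, at 16.6, 9.56 and 11.8 in control injured libraries, at 8.96, 9.96 and 9.58 in Nf1-KO uninjured libraries and at 14.3, 11.8 and 9.21 in control uninjured libraries. These ranges overlap within both skin states, and neither genotype difference in Nf1 was called (adjusted p = 0.989 in injured skin and 0.884 in uninjured skin, edgeR). Injured libraries carried female markers and uninjured libraries male markers, so injury and sex cannot be told apart in any comparison of skin states. The uninjured libraries numbered 3, in both genotypes, stood apart from libraries 1 and 2 in many of the genes described here, and values without them are given where a call, a direction or a tally rests on them. In whole tissue, a lower level may reflect fewer cells of a type or less RNA per cell, which cannot be told apart.

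Genes were compared with edgeR's quasi-likelihood test over the 23635 genes that passed its filter on low counts, and a gene was called at a Benjamini-Hochberg adjusted p under 0.05. Of the 43 members, 40 passed the filter. Sprr2a1, Sprr2a2 and Sprr3 did not, with at most 0.947 CPM of Sprr3 in any library. Keratinocyte markers were present in every library: the suprabasal keratins Krt1, Krt2, Krt10, Krt77 and Krt80 summed to 6143 to 7665 CPM in Nf1-KO injured libraries, 9090 to 14354 in control injured libraries, 18336 to 25506 in Nf1-KO uninjured libraries and 15634 to 21649 in control uninjured libraries. Keratins of oral and oesophageal epithelium (Krt4, Krt13 and Krt76), which express several of the same genes, summed to at most 4.23 CPM in any library.

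The set split between injured and uninjured skin, a comparison in which the sex markers differed too. All 6 Lce3 genes, most tested Sprr genes, Crnn and Rptn rose in injured skin of both genotypes, by up to 458-fold, while Lce1m and Flg2 fell in both and Ivl was called in neither. Lor, which with Lce1m and Flg2 held most of the members' reads in uninjured skin, fell in Nf1-KO skin and was not called in control skin. In Nf1-KO skin 16 of the 40 tested members rose and 8 fell, beside 19.1% of all tested genes called higher and 18.4% called lower. In control skin 26 rose and 2 fell, beside 22.8% of all tested genes called higher and 32.5% called lower. In either direction, 37.4% of all tested genes were called in Nf1-KO skin and 55.3% in control skin. Injured and uninjured libraries did not overlap for 19 members that were higher and 8 that were lower in Nf1-KO injured skin, beside 23.6% and 27.9% of all tested genes, and for 32 that were higher and 2 that were lower in control injured skin, beside 25.8% and 36.6%. The median log2 fold change of the 40 tested members was 2.09 in Nf1-KO skin, where that of all tested genes was -0.09, and 3.94 in control skin, where that of all tested genes was -0.21. The same 16 genes that rose in Nf1-KO skin also rose in control skin, and Lce1m and Flg2 fell in both. The count of rises in Nf1-KO skin depended on single libraries: it was 9 without Nf1-KO uninjured library 1 or without library 2, 10 without Nf1-KO injured library 1, and 29 without Nf1-KO uninjured library 3. In control skin, omitting control uninjured libraries 1 and 2 together leaves library 3 as the only uninjured control, which is then assumed to vary like the libraries of the other groups, and 7 members were called higher in that fit. The share of counts in ribosomal RNA-like genes moved with skin state, at 1.75% to 4.21% in injured and 0.931% to 2.25% in uninjured libraries, and with that share as a covariate 8 members were called higher in Nf1-KO skin and 17 in control skin. The Nf1-KO rises lost with it were those of Sprr2a3, Sprr2d, Sprr2j-ps, Sprr1a, Lce3b, Lce3c, Lce3d and Rptn, and the control rises lost were those of Sprr2f, Sprr2h, Lce1a1, Lce1d, Lce1e, Lce1f, Lce1h, Lce1k and Flg. The shares of all tested genes above belong to the fit with all libraries and no covariate. Calls over all genes also moved with the setting, as the section on processing gives, so these changes are not read as particular to the members.

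**Figure D1:**
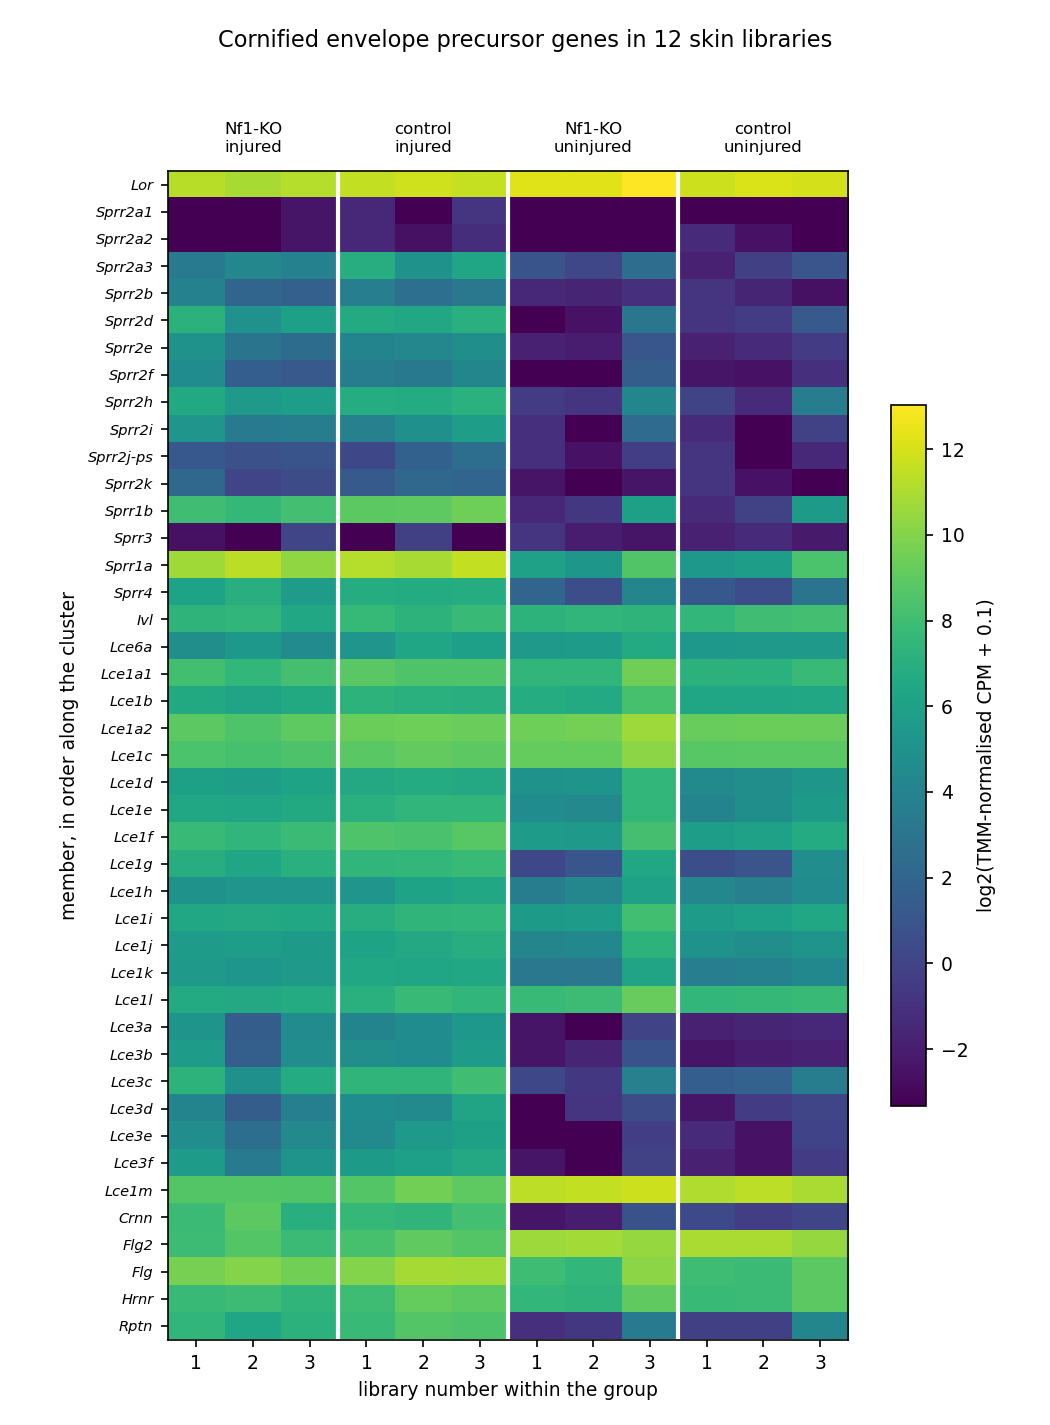
Level of each of the 43 members (rows, in order along the cluster) in each of the 12 libraries (columns, 3 per group), as log2 of TMM-normalised CPM plus 0.1. Most Sprr2, the Lce3, Crnn and Rptn rows are brighter in the 6 injured libraries than in uninjured libraries 1 and 2, Sprr2a1 and Sprr2a2 are dark throughout, the uninjured libraries numbered 3 lie between for many of them, and Lce1m and Flg2 show the opposite order.

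The promoters of 6 members are shown because the results on injury turn on these genes. Each line runs 5′ to 3′ on the strand of the gene, from 250 bases before to 50 bases after the start in RefSeq (GRCm38.p6). Capitals mark a match to TGANTCA, a loose form of the site of AP-1 factors in which N is any base. AP-1 factors are dimers of Jun and Fos proteins. Lor (chr3:92083093-92083392, minus strand), Lce1m (chr3:93019012-93019311, minus strand) and Flg2 (chr3:93197023-93197322, plus strand) had their lowest mean levels in Nf1-KO injured skin. Sprr2d (chr3:92338890-92339189, plus strand), Lce3f (chr3:92991967-92992266, plus strand) and Crnn (chr3:93144539-93144838, plus strand) had higher mean levels in injured than in uninjured skin.
Lor: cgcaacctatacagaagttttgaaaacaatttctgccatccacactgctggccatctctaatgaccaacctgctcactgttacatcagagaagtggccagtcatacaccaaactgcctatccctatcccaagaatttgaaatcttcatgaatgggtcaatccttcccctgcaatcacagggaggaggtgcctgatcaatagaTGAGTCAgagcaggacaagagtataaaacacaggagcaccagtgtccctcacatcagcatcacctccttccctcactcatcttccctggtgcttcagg
Lce1m: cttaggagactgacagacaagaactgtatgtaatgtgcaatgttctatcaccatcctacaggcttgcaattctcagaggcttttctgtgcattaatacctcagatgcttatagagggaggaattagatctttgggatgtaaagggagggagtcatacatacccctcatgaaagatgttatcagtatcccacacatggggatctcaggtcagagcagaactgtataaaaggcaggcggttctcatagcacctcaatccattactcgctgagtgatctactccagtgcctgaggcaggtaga
Flg2: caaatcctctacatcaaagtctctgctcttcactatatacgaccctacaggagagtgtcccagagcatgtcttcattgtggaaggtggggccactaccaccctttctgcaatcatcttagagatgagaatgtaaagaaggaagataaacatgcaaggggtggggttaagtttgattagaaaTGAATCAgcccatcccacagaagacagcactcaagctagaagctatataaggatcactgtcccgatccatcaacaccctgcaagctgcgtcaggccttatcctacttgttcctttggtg
Sprr2d: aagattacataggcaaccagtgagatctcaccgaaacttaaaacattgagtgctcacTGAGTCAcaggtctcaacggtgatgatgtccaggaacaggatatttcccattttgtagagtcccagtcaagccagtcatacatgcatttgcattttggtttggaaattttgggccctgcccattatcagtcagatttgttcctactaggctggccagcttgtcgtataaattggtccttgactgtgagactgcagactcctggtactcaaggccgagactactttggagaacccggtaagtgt
Lce3f: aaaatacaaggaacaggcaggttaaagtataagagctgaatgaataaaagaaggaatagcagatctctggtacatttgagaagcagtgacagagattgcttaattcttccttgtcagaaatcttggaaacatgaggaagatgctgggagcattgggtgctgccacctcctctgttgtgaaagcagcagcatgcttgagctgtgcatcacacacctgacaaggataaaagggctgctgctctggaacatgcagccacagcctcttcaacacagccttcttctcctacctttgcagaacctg
Crnn: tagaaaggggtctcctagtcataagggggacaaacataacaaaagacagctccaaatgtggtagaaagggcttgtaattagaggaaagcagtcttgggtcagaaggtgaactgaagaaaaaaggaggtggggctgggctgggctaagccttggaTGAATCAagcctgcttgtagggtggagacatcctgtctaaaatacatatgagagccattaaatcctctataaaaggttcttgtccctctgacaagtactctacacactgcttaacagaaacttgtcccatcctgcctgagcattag

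RefSeq promoters matched 41 of the 43 members, all but Lce1f and Sprr2j-ps. TGANTCA, searched on both strands, was present in 15 of the 41 (36.6%), beside 7.81% of all 32851 promoters of the same length. It was found in 7 of 10 Sprr2 promoters, both Sprr1 promoters, 4 of 5 S100-fused promoters, Lor and Ivl. The middle base was A in Sprr1b, Crnn, Flg2 and Flg, T in Rptn, and G or C in the other matches. Matches over all promoters were not counted by middle base. None of the 13 Lce1 and none of the 6 Lce3 promoters held it within this window. The match was centred at position -190 from the start in Sprr2d, -93 in Crnn, -66 in Flg2 and -45 in Lor, so genes that rose and genes that fell both held it. TATAAA, searched on both strands, was present in 20 of 41 promoters (48.8%), beside 13.6% of all. The Grainyhead-like motif AACCNGTT was present in 1 of 41 (2.44%), beside 2.09% of all, and the Krüppel-like motif GGGTGNGG in 6 of 41 (14.6%), beside 16.6% of all. A match is a string of letters, not an occupied site. Promoters of 1 family are related sequences: identity between pairs ran from 39.7% to 100% among Sprr2 genes, from 44.3% to 86.3% among Lce1 genes and from 55% to 85% among Lce3 genes, so matches within a family are not independent.

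Loricrin, the glycine-rich protein that makes up much of the envelope, was abundant in every library. Lor stood at 2477, 1939 and 2380 CPM in Nf1-KO injured libraries, against 4894, 4937 and 8396 CPM in Nf1-KO uninjured libraries. In control skin it stood at 2976, 3778 and 3052 CPM in injured libraries, against 3464, 4507 and 3969 CPM in uninjured libraries. The Nf1-KO groups did not overlap, and Lor fell there by 1.42 on the log2 scale (SE 0.27, adjusted p = 0.000788, edgeR). The control groups overlapped, with a log2 fold change of -0.28 (SE 0.26, adjusted p = 0.377).

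Involucrin, the early scaffold protein, was not called in either genotype. Ivl stood at 156, 171 and 86.9 CPM in Nf1-KO injured libraries, against 151, 175 and 157 CPM in Nf1-KO uninjured libraries. Its levels were 200, 150 and 219 CPM in control injured libraries, against 180, 265 and 281 CPM in control uninjured libraries. The groups overlapped in both genotypes, and the log2 fold changes were -0.22 (SE 0.25, adjusted p = 0.504) in Nf1-KO skin and -0.35 (SE 0.25, adjusted p = 0.241) in control skin by edgeR.

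Of the 5 S100-fused genes, Crnn and Rptn rose and Flg2 fell in both genotypes, Flg was called higher in control skin and not called in Nf1-KO skin, and Hrnr was called in neither. Crnn encodes cornulin, a protein of stratified squamous epithelia that is best known from the human oesophagus. Its level was close to 0 in uninjured skin, at 0.334 and 0.494 CPM per kb on average in Nf1-KO and control libraries. Receptor genes of the nose, taken as background, stood at 0.0941 to 0.331 CPM per kb (no TMM scaling) in uninjured libraries. In injured libraries they stood at 0.00222 to 0.0529. More genes had a count in uninjured (38490 to 43311) than in injured libraries (25188 to 34592). The part of background in the size of the large rises was not tested. Crnn stood at 230, 488 and 124 CPM in Nf1-KO injured libraries, against 0.0896, 0.153 and 1.63 CPM in Nf1-KO uninjured libraries. In control skin it stood at 190, 170 and 278 CPM in injured libraries, against 1.13, 0.691 and 0.947 CPM in uninjured libraries. Every injured library exceeded every uninjured one by a wide margin, with a 458-fold rise in Nf1-KO skin (log2 fold change 8.84, SE 0.85, adjusted p = 3.63e-05) and a 230-fold rise in control skin (7.85, SE 0.80, adjusted p = 5.72e-05). This was the largest fitted log2 fold change of any tested member in each genotype with all libraries. Without Nf1-KO uninjured library 3 the Nf1-KO value for Crnn was 11.07, and without control uninjured library 3 the control value was 7.98 and Sprr1b, at 9.97, had the largest. Nf1-KO uninjured libraries 1 and 2 together held 3 counts of Crnn, so the size of the 11.07 is uncertain. Rptn encodes repetin, known in mice from the inner root sheath of hair and the filiform papillae of the tongue, and it averaged 133 ± 47.3 CPM in Nf1-KO injured skin against 4 ± 6.16 CPM in Nf1-KO uninjured skin (SD, n = 3 each). In control skin Rptn averaged 328 ± 96.6 CPM in injured against 6.65 ± 10.2 CPM in uninjured libraries (SD, n = 3 each). Both rises were called, at log2 5.07 (SE 1.51, adjusted p = 0.0302) in Nf1-KO skin and 5.58 (SE 1.51, adjusted p = 0.0134) in control skin by edgeR. The Nf1-KO call for Rptn was lost without Nf1-KO uninjured library 1 (adjusted p = 0.0829), without library 2 (adjusted p = 0.0939) or without Nf1-KO injured library 1 (adjusted p = 0.0741). Without the uninjured library 3 of its genotype the log2 fold change of Rptn was 8.19 in Nf1-KO and 8.84 in control skin.

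Flg2, which encodes filaggrin 2, fell in both genotypes. It stood at 239, 413 and 223 CPM in Nf1-KO injured libraries, against 1582, 1706 and 1422 CPM in Nf1-KO uninjured libraries. In control skin its levels were 311, 523 and 398 CPM in injured libraries, against 1964, 1995 and 1425 CPM in uninjured libraries. No injured library reached the lowest uninjured one, and the fall was 5.38-fold in Nf1-KO skin (log2 fold change -2.43, SE 0.29, adjusted p = 1.15e-05) and 4.37-fold in control skin (-2.13, SE 0.28, adjusted p = 3.98e-05) by edgeR. Flg, the filaggrin gene next to it, went the other way in control skin, at 1514 ± 435 CPM in injured against 319 ± 142 CPM in uninjured libraries (SD, n = 3 each; log2 fold change 2.25, SE 0.63, adjusted p = 0.0111). In Nf1-KO skin Flg averaged 865 ± 149 CPM in injured against 528 ± 541 CPM in uninjured libraries (SD, n = 3 each), a difference that was not called (adjusted p = 0.369, edgeR) and in which uninjured library 3, at 1152 CPM, exceeded every injured library. Without that library Flg was called higher in Nf1-KO skin (log2 fold change 2.02, adjusted p = 0.000681). Hrnr, which encodes hornerin, was not called in either genotype, with log2 fold changes of -0.49 (SE 0.48, adjusted p = 0.431) in Nf1-KO skin and 0.49 (SE 0.48, adjusted p = 0.4) in control skin. Flg shares its locus with the processed pseudogene Rplp0-ps1, and Hrnr and Rptn overlap a long noncoding gene on the opposite strand, so reads there cannot be separated by strand.

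Of the 12 tested genes of the SPRR cross-bridge proteins, 8 rose in Nf1-KO skin and 11 in control skin, beside 19.1% and 22.8% of all tested genes. All 9 tested Sprr2 genes rose in control skin and 6 of the 9 in Nf1-KO skin, and the other 3 (Sprr2f, Sprr2h and Sprr2i) had positive log2 fold changes of 3.51, 3.41 and 3.47 there and were called without Nf1-KO uninjured library 3. Sprr1a, the most abundant SPRR transcript per kilobase, stood at 1704, 2580 and 1291 CPM in Nf1-KO injured libraries, against 65.2, 40.8 and 385 CPM in Nf1-KO uninjured libraries. In control skin it stood at 2392, 1867 and 2935 CPM in injured libraries, against 42.9, 57.6 and 332 CPM in uninjured libraries. The groups did not overlap, and the rise was 11.4-fold in Nf1-KO skin (log2 fold change 3.51, SE 1.05, adjusted p = 0.0289) and 16.6-fold in control skin (4.05, SE 1.08, adjusted p = 0.0112) by edgeR. The Nf1-KO call for Sprr1a was lost when any 1 of Nf1-KO uninjured libraries 1 and 2 or Nf1-KO injured libraries 1 and 2 was left out, with adjusted p between 0.0691 and 0.0846. Without the uninjured library 3 of its genotype the log2 fold change of Sprr1a was 5.16 in Nf1-KO and 5.68 in control skin.

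Sprr1b showed the same order of groups without a call. Its levels were 263, 194 and 286 CPM in Nf1-KO injured libraries, against 0.269, 0.536 and 61.7 CPM in Nf1-KO uninjured libraries. In control skin they were 480, 509 and 675 CPM in injured libraries, against 0.282, 0.844 and 49.2 CPM in uninjured libraries. No injured and uninjured values overlapped, and the log2 fold changes of 3.57 (SE 1.99, adjusted p = 0.187) in Nf1-KO skin and 5.03 (SE 2.12, adjusted p = 0.0747) in control skin were not called by edgeR. Library 3 was far above the other uninjured libraries in each genotype. Without Nf1-KO uninjured library 3 the Nf1-KO value for Sprr1b was 9.23 (adjusted p = 0.0246), and without control uninjured library 3 the control value was 9.97 (adjusted p = 0.0144).

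Among the Sprr2 genes, Sprr2d and Sprr2h had the highest levels per kilobase. Sprr2d stood at 145, 31.3 and 59 CPM in Nf1-KO injured libraries, against 0, 0.0766 and 8.49 CPM in Nf1-KO uninjured libraries, and at 102, 89.4 and 131 CPM in control injured libraries, against 0.47, 0.614 and 2.27 CPM in control uninjured libraries. Its rise was called in both genotypes (log2 fold change 4.81, SE 1.31, adjusted p = 0.0215 in Nf1-KO skin and 6.49, SE 1.44, adjusted p = 0.00534 in control skin, edgeR). In Nf1-KO skin the Sprr2d call was lost without uninjured library 1 (adjusted p = 0.0513), without uninjured library 2 (adjusted p = 0.0598) or without injured library 1 (adjusted p = 0.069). Sprr2h stood at 98.3, 43.6 and 56.9 CPM in Nf1-KO injured libraries, against 0.627, 0.46 and 17.8 CPM in Nf1-KO uninjured libraries, and at 114, 109 and 140 CPM in control injured libraries, against 0.941, 0.307 and 11.5 CPM in control uninjured libraries. For both genes uninjured library 3 was the highest uninjured library in each genotype, and no groups overlapped. Without that library the log2 fold changes in Nf1-KO and control skin were 10.62 and 7.70 for Sprr2d and 6.94 and 7.73 for Sprr2h. Nf1-KO uninjured libraries 1 and 2 together held 1 count of Sprr2d, so the size of the 10.62 is uncertain. Sprr2h was called in control skin (log2 fold change 4.77, SE 1.48, adjusted p = 0.0239, edgeR), but not without control uninjured library 1 (adjusted p = 0.0657), control uninjured library 2 (adjusted p = 0.0681) or control injured library 3 (adjusted p = 0.0511).

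Among the remaining Sprr genes, Sprr2k and Sprr3 were of low count, and the Sprr2a genes were close to a copy. Sprr2k had 99 counts over the Nf1-KO injured libraries and 2 over the Nf1-KO uninjured libraries, a ratio of pooled CPM of 37.2 with a 95% exact counting interval of 10 to 311. Sprr2a1, Sprr2a2 and Sprr2a3 share most of their sequence: 96.3% of the 50-base windows of Sprr2a1, 96.5% of those of Sprr2a2 and 61.1% of those of Sprr2a3 occur in another gene, so the split of reads between them is uncertain. Sprr2a3 was called higher in both genotypes (log2 fold change 2.39, SE 0.72, adjusted p = 0.0271 in Nf1-KO skin and 6.22, SE 0.84, adjusted p = 0.00032 in control skin, edgeR), and the Nf1-KO call was lost without any 1 of Nf1-KO uninjured library 1, uninjured library 2 or the 3 Nf1-KO injured libraries, with adjusted p between 0.0533 and 0.0887. Sprr4 stood at 73, 124 and 50.9 CPM in Nf1-KO injured libraries, against 3.94, 1.38 and 17.7 CPM in Nf1-KO uninjured libraries, and at 110, 108 and 112 CPM in control injured libraries, against 2.16, 1.38 and 7.7 CPM in control uninjured libraries. Its groups did not overlap and both rises were called (log2 fold change 3.44, SE 0.90, adjusted p = 0.017 in Nf1-KO skin and 4.83, SE 0.96, adjusted p = 0.00291 in control skin, edgeR), the Nf1-KO one not without uninjured library 1 (adjusted p = 0.0608). Without the uninjured library 3 of the genotype, the log2 fold changes in Nf1-KO and control skin were 5.0 and 6.07 for Sprr4 and 3.44 and 7.34 for Sprr2a3. Sprr3, known from oral and oesophageal epithelium, stood at 0.0641, 0 and 0.947 CPM in Nf1-KO injured libraries, 0, 0.76 and 0 in control injured libraries, 0.448, 0.153 and 0.0903 in Nf1-KO uninjured libraries and 0.188, 0.307 and 0.126 in control uninjured libraries, and was not tested.

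**Figure D2:**
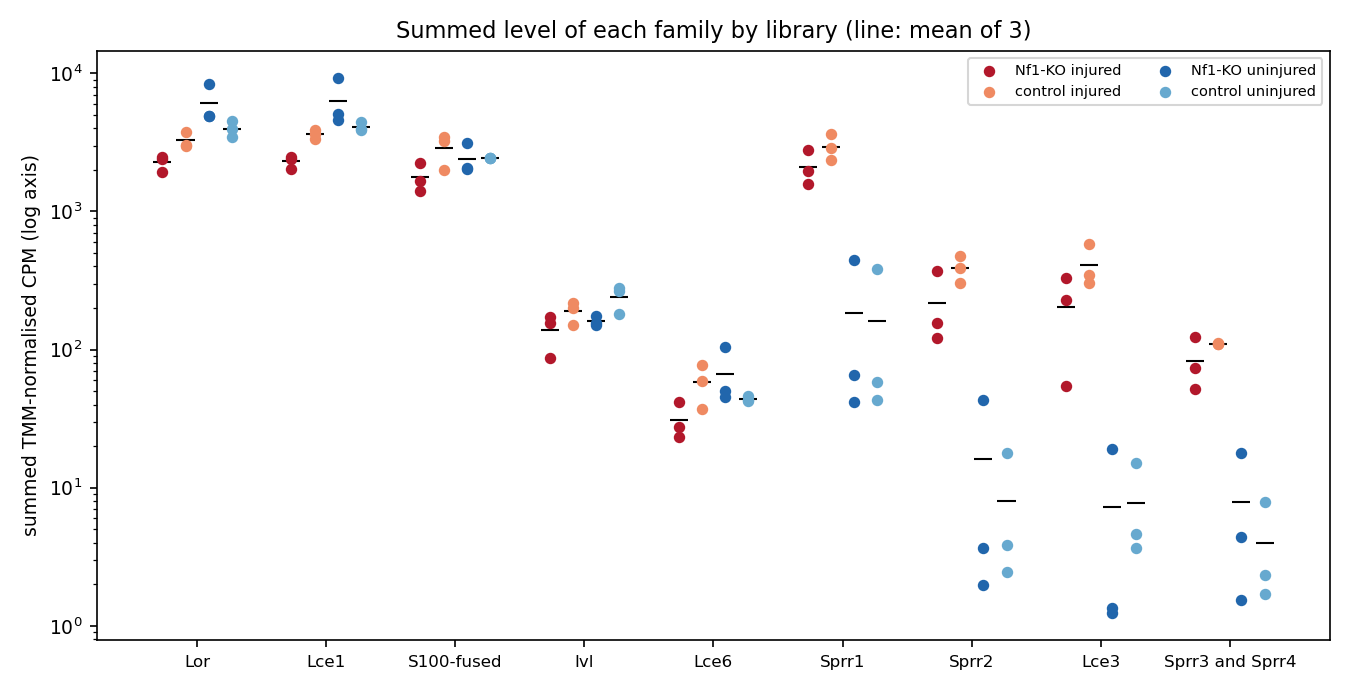
Summed TMM-normalised CPM of each family (log axis) in each library, with points for the 3 libraries of a group and a line at their mean, for Nf1-KO injured, control injured, Nf1-KO uninjured and control uninjured skin. The Sprr1, Sprr2 and Lce3 sums of the injured libraries lie above those of all uninjured libraries, whereas the injured and uninjured sums of Ivl and the S100-fused genes overlap, and Lce1 runs from 2041 to 2499 CPM in Nf1-KO injured libraries and from 4626 to 9327 CPM in Nf1-KO uninjured libraries.

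All 6 Lce3 genes, relatives of genes that respond to barrier damage in human skin, rose in both genotypes. Their summed level was 332, 54.1 and 227 CPM in Nf1-KO injured libraries, against 1.34, 1.23 and 19.1 CPM in Nf1-KO uninjured libraries. In control skin the sum was 303, 348 and 582 CPM in injured libraries, against 3.67, 4.6 and 15 CPM in uninjured libraries. Nf1-KO injured library 2 was the lowest injured library for each of the 6 genes, and still exceeded every uninjured library in the sum. Lce3f stood at 50.6, 10.8 and 35 CPM in Nf1-KO injured libraries, against 0.0896, 0 and 0.813 CPM in Nf1-KO uninjured libraries, and at 48.5, 61.1 and 94.2 CPM in control injured libraries, against 0.188, 0.0767 and 0.631 CPM in control uninjured libraries. Its rise was 109-fold in Nf1-KO skin (log2 fold change 6.76, SE 0.93, adjusted p = 0.000399) and 205-fold in control skin (7.68, SE 0.91, adjusted p = 0.000149) by edgeR, with no overlap between groups.

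Other members of the family followed the same order of groups. Lce3c, the most abundant Lce3 transcript per kilobase, stood at 155, 29 and 108 CPM in Nf1-KO injured libraries, against 1.08, 0.536 and 13.7 CPM in Nf1-KO uninjured libraries, and at 165, 170 and 259 CPM in control injured libraries, against 2.82, 3.45 and 12.1 CPM in control uninjured libraries. It rose by log2 4.27 (SE 1.19, adjusted p = 0.0235) in Nf1-KO skin and 4.98 (SE 1.21, adjusted p = 0.00816) in control skin, and the Nf1-KO call was lost without uninjured library 1 (adjusted p = 0.0691), uninjured library 2 (adjusted p = 0.0633) or injured library 1 (adjusted p = 0.0694). Lce3b stood at 50.3, 3.03 and 25.9 CPM in Nf1-KO injured libraries, against 0.0896, 0.23 and 1.63 CPM in Nf1-KO uninjured libraries, and at 27, 24.7 and 50 CPM in control injured libraries, against 0.094, 0.153 and 0.189 CPM in control uninjured libraries. Its uninjured levels were near 0 apart from Nf1-KO library 3, and its rise was 41.2-fold in Nf1-KO skin (log2 fold change 5.36, SE 1.12, adjusted p = 0.00559) and 211-fold in control skin (7.72, SE 1.33, adjusted p = 0.00125) by edgeR. Lce3e stood at 25.5, 5.85 and 20.7 CPM in Nf1-KO injured libraries, against 0, 0 and 0.723 CPM in Nf1-KO uninjured libraries, and at 22, 44.3 and 62.9 CPM in control injured libraries, against 0.282, 0.0767 and 0.883 CPM in control uninjured libraries. It rose 72.6-fold in Nf1-KO skin (adjusted p = 0.00165) and 95.3-fold in control skin (adjusted p = 0.000504). All 6 Lce3 genes were called without the uninjured library 3 of either genotype, with larger log2 fold changes: without the Nf1-KO one, the median over the 6 in Nf1-KO skin was 7.97 in place of 5.66, and without the control one, the median in control skin was 7.54 in place of 6.73. Nf1-KO uninjured libraries 1 and 2 together held 0 counts of Lce3e, 1 each of Lce3a and Lce3f, 4 of Lce3b, 6 of Lce3d and 19 of Lce3c. In control skin the same 2 libraries held 3 each of Lce3b and Lce3f. The sizes of these larger changes are therefore uncertain. In Nf1-KO skin Lce3d lost its call without uninjured library 2 (adjusted p = 0.054), and with the ribosomal RNA-like covariate Lce3b (adjusted p = 0.0568), Lce3c (adjusted p = 0.091) and Lce3d (adjusted p = 0.0784) were not called. Between 12.1% and 49.3% of the 50-base windows of the Lce3 genes occur in another gene, so part of each level may be shared between copies.

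The Lce1 genes did not move together. Over all tested genes, 22.8% were called higher and 32.5% lower in control skin, and 19.1% and 18.4% in Nf1-KO skin. In control skin 6 of the 14 Lce1 genes rose (Lce1a1, Lce1d, Lce1e, Lce1f, Lce1h and Lce1k) and Lce1m fell, and in Nf1-KO skin none rose and 5 fell (Lce1a2, Lce1b, Lce1c, Lce1l and Lce1m). The Nf1-KO counts rested on uninjured library 3: without it 8 Lce1 genes rose (Lce1d, Lce1e, Lce1f, Lce1g, Lce1h, Lce1i, Lce1j and Lce1k, by log2 0.93 for Lce1d to 6.16 for Lce1g) and 4 fell, Lce1b being the one lost. Lce1m, which the Lce3 genes separate from the other Lce1 genes, had the largest fall in Nf1-KO skin. It stood at 409, 397 and 383 CPM in Nf1-KO injured libraries, against 2676, 3003 and 3548 CPM in Nf1-KO uninjured libraries. In control skin it stood at 409, 741 and 496 CPM in injured libraries, against 2216, 2714 and 1964 CPM in uninjured libraries. Every injured library was below every uninjured one, and the fall was 7.76-fold in Nf1-KO skin (log2 fold change -2.96, SE 0.27, adjusted p = 9.93e-07) and 4.19-fold in control skin (-2.07, SE 0.26, adjusted p = 2.35e-05) by edgeR. No 50-base window of Lce1m occurs in another gene.

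Lce1a2 and Lce1l were called lower in Nf1-KO skin and not in control skin, and the difference between these responses was itself not called (adjusted p = 0.442 for each gene). Lce1a2 stood at 473, 363 and 512 CPM in Nf1-KO injured libraries, against 678, 771 and 1627 CPM in Nf1-KO uninjured libraries (log2 fold change -1.19, SE 0.28, adjusted p = 0.00435, edgeR). In control skin it stood at 655, 686 and 635 CPM in injured libraries, against 595, 657 and 632 CPM in uninjured libraries (log2 fold change 0.07, SE 0.28, adjusted p = 0.851). The control groups thus lay within 1 narrow range, and the Nf1-KO groups did not overlap. Lce1l stood at 102, 93.2 and 107 CPM in Nf1-KO injured libraries, against 219, 235 and 615 CPM in Nf1-KO uninjured libraries (log2 fold change -1.82, SE 0.32, adjusted p = 0.000506), and at 136, 209 and 173 CPM in control injured libraries, against 185, 188 and 219 CPM in control uninjured libraries (log2 fold change -0.19, SE 0.31, adjusted p = 0.625). Lce1b fell in Nf1-KO skin by log2 0.93 (adjusted p = 0.0376), a call that was lost in 10 of the 12 fits that left out 1 library, with adjusted p up to 0.449 without Nf1-KO uninjured library 3. Without Nf1-KO uninjured library 3 the Nf1-KO log2 fold changes were -0.66 for Lce1a2 (adjusted p = 0.02) and -1.14 for Lce1l (adjusted p = 0.000615). Among the 14 Lce1 genes 0% to 27.1% of the 50-base windows occur in another gene.

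Of the Lce1 genes, Lce1g had the widest spread between uninjured libraries relative to its level. It averaged 110 ± 26.7 CPM in Nf1-KO injured skin against 29.3 ± 48 CPM in Nf1-KO uninjured skin, and 187 ± 17.8 CPM in control injured skin against 9.75 ± 14 CPM in control uninjured skin (SD, n = 3 each). Neither difference was called (adjusted p = 0.346 and 0.0607, edgeR), and uninjured library 3 held Lce1g at 84.7 CPM in Nf1-KO skin and 25.9 CPM in control skin while the other uninjured libraries held at most 1.99 CPM. Without Nf1-KO uninjured library 3 Lce1g was called in Nf1-KO skin (log2 fold change 6.16, adjusted p = 0.0125), and without control uninjured library 3 in control skin (6.90, adjusted p = 0.0237). Of the 6 Lce1 genes that rose in control skin, Lce1k had the largest log2 fold change, at 2.44 (SE 0.75, adjusted p = 0.0208), and Lce1a1 the smallest, at 1.29 (SE 0.47, adjusted p = 0.0355). All 6 lost their call in at least 1 fit without a single library: without control uninjured library 2 each was above the threshold, with adjusted p between 0.0524 for Lce1f and 0.103 for Lce1a1.

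Lce6a stood at 27.6, 41.6 and 23.2 CPM in Nf1-KO injured libraries, against 45.2, 49.8 and 104 CPM in Nf1-KO uninjured libraries. In control skin it stood at 37.3, 77.8 and 59.6 CPM in injured libraries, against 42.3, 45.9 and 43.4 CPM in uninjured libraries. The Nf1-KO groups did not overlap and Lce6a fell there by 1.10 on the log2 scale (SE 0.33, adjusted p = 0.0169, edgeR), whereas the control groups overlapped (log2 fold change 0.41, SE 0.32, adjusted p = 0.294). The Nf1-KO call for Lce6a was lost without uninjured library 3 (adjusted p = 0.11) or injured library 1 (adjusted p = 0.0759).

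**Figure D3:**
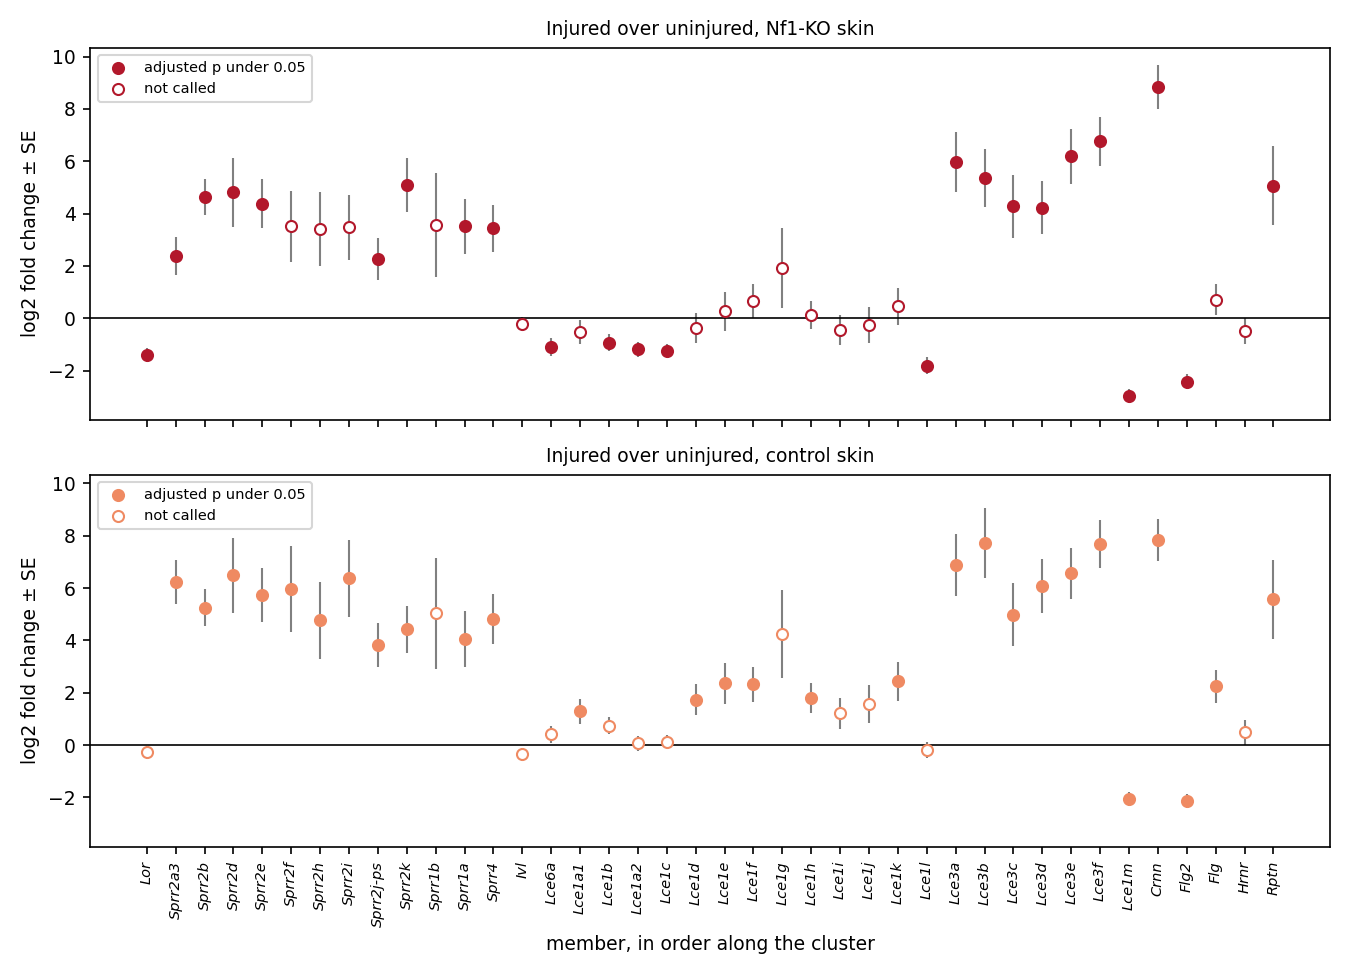
Log2 fold change of injured over uninjured skin (points, with bars of 1 SE) for the 40 tested members in order along the cluster, in Nf1-KO skin above and control skin below. Filled points passed an adjusted p of 0.05 and open points did not, and Lce1m, at -2.96 and -2.07, sits between Lce3f, at 6.76 and 7.68, and Crnn, at 8.84 and 7.85.

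Neighbours in the cluster differed sharply. Lce1m lies between Lce3f and Crnn, so a gene that fell is flanked by genes that rose: the log2 fold changes of Lce3f and Lce1m differed by 9.72 in Nf1-KO skin and by 9.74 in control skin, and those of Lce1m and Crnn by 11.80 in Nf1-KO and 9.91 in control skin. Flg2 follows Crnn, and that pair differed by 11.27 in Nf1-KO skin and 9.98 in control skin. Lce1l, the last gene of the main Lce1 block, differed from the adjacent Lce3a by 7.78 in Nf1-KO skin and 7.08 in control skin.

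Injured and uninjured skin differed in which members held the reads. Lce3, Sprr1, Sprr2, Crnn and Rptn together took 32.5%, 37% and 26.5% of the members' reads in Nf1-KO injured libraries, against 0.601%, 0.367% and 2.41% in Nf1-KO uninjured libraries. In control skin the same genes took 32.5%, 24.9% and 35.3% in injured libraries, against 0.523%, 0.567% and 3.91% in uninjured libraries. Lor, Lce1m and Flg2 took 33%, 28.9% and 35.5% in Nf1-KO injured libraries, against 77.5%, 78.3% and 61.8% in Nf1-KO uninjured libraries, and 30.2%, 34.7% and 26.3% in control injured libraries, against 76.1%, 78.1% and 66.4% in control uninjured libraries. These 2 sets were grouped after their values were seen, so the shares are a description. Per kilobase of exon, the highest member was Sprr1a in injured skin (2306 CPM per kb in Nf1-KO and 2975 in control), Lor in Nf1-KO uninjured skin (3415) and Lce1m in control uninjured skin (2421). Over uninjured libraries 1 and 2 alone Lce1m was the highest in both genotypes, at 2992 CPM per kb in Nf1-KO skin, where Lor was at 2763, and 2597 in control skin, where Lor was at 2240. All members together summed to 9467, 9520 and 8410 CPM in Nf1-KO injured libraries, against 11807, 12326 and 21617 CPM in Nf1-KO uninjured libraries, and to 12241, 14521 and 14993 CPM in control injured libraries, against 10048, 11803 and 11089 CPM in control uninjured libraries. The ratio of the mean sums, injured over uninjured, was 0.599 in Nf1-KO skin and 1.27 in control skin, and per CPM of Krt1 and Krt10 it was 1.43 and 1.57, so the direction in Nf1-KO skin turned with the keratins as the scale. The size of the 0.599 rested in part on Nf1-KO uninjured library 3, at 21617 CPM against 11807 and 12326 in libraries 1 and 2. Each Nf1-KO injured sum was below those of libraries 1 and 2 as well.

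Many members stood high in the uninjured libraries numbered 3, in both genotypes. Library 3 was the highest of its 3 uninjured libraries for 38 of 43 members in Nf1-KO skin and 30 of 43 in control skin, where 41.7% and 38.9% of all tested genes had library 3 highest, and 29 members did so in both. Relative to the mean of libraries 1 and 2, the median ratio was 5.28 over 34 members in Nf1-KO skin and 1.46 over 38 members in control skin. Rptn in Nf1-KO skin stood at 11.1 CPM in library 3, against 0.447 CPM on average in libraries 1 and 2, and in control skin at 18.4 CPM against 0.76 CPM. Other members stood near that mean: the ratio was 0.865 for Flg2 and 0.962 for Ivl in Nf1-KO skin, and 0.996 for Lor, 0.72 for Flg2 and 1.26 for Ivl in control skin. The wound keratin Krt6b moved the same way, at 177 CPM in Nf1-KO library 3 against 0.684 CPM on average in libraries 1 and 2, and at 156 CPM in control library 3 against 0.649 CPM. Krt16 stood at 380 CPM in Nf1-KO library 3 against 5.25 CPM, and at 291 CPM in control library 3 against 3.58 CPM. The part of wound-activated keratinocytes in the levels of these libraries was not tested.

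Without both libraries numbered 3, the counts changed in Nf1-KO skin more than in control skin. In Nf1-KO skin 29 of the tested members were then called higher and 6 lower, and the 16 rises above were all kept, while the falls of Lce6a and Lce1b were lost (adjusted p = 0.086 and 0.278). In control skin 32 were called higher and 2 lower, with all 26 rises kept. Lce1d, Lce1i and Lce1j, whose log2 fold changes in Nf1-KO skin were -0.36, -0.45 and -0.26 with all libraries, had values of 0.86, 0.87 and 1.43 without these 2 libraries. The direction of these 3 genes in Nf1-KO skin therefore depended on library 3.

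**Figure D4:**
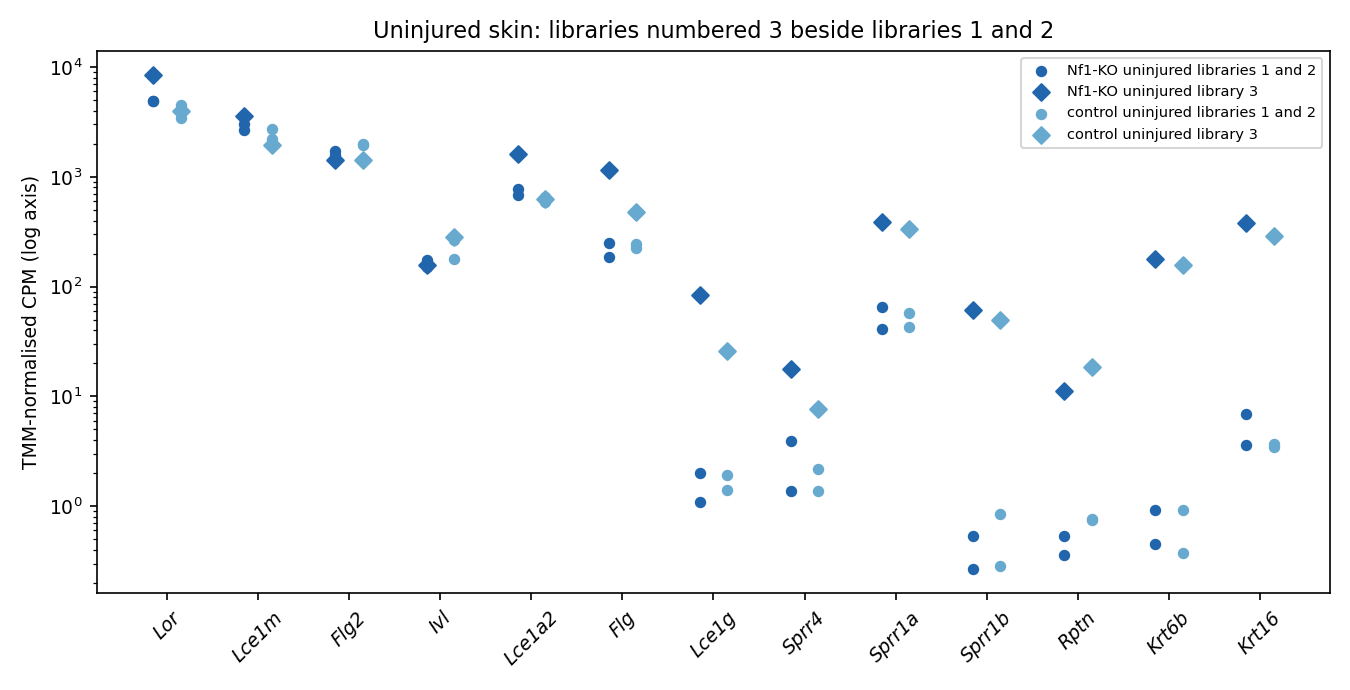
TMM-normalised CPM (log axis) of 11 members and the wound keratins Krt6b and Krt16 in the 6 uninjured libraries, Nf1-KO left and control right for each gene, with diamonds for libraries numbered 3 and circles for libraries 1 and 2. The diamonds lie within the circles' range or near it for Lor, Lce1m, Flg2 and Ivl in control skin and far above it in both genotypes for Lce1g, Sprr1b, Rptn, Krt6b and Krt16.

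No member was called between genotypes in injured skin, yet the direction was one-sided. Nf1-KO injured skin had the lower fitted level for 39 of 40 tested members (all but Crnn), with a median log2 difference of -0.74 where the median of all tested genes was 0.12. The 3 Nf1-KO libraries lay below the 3 control libraries without overlap for 21 of the 40, beside 2.67% of all tested genes, and 13 of those 21 were Lce1 genes. No member was higher without overlap, beside 6.37% of all tested genes. EdgeR called 0 members and 0% of all tested genes, and 6 members had an unadjusted p under 0.05, beside 10.7% of all tested genes. DESeq2 and limma voom also called 0 members, with 11 and 12 at an unadjusted p under 0.05. Lor, at 2477, 1939 and 2380 CPM in Nf1-KO injured libraries against 2976, 3778 and 3052 CPM in control injured libraries, did not overlap but was not called (log2 difference -0.53, SE 0.26, adjusted p = 0.499). Sprr2a3 had the smallest unadjusted p, with 11.3, 18.6 and 14.6 CPM in Nf1-KO injured libraries against 118, 32.7 and 79.1 CPM in control injured libraries (log2 difference -2.37, SE 0.66, adjusted p = 0.355), and its reads are shared with its copies as described. Members share tissue and library, so the 39 directions are not independent observations. The one-sided order was also tied to the CPM scale. Per CPM of Krt1 and Krt10, all members summed to 1.86, 1.55 and 1.7 in Nf1-KO injured and 1.89, 1.22 and 1.68 in control injured libraries, which overlapped. On that scale the Nf1-KO mean was lower for Sprr2, Lce3 (0.0399 against 0.0471) and Lce6. It was higher for the other families, among them Lor (0.428 against 0.372) and Lce1 (0.436 against 0.418).

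Other markers differed between the same libraries. The suprabasal keratins, at 6143 to 7665 CPM in Nf1-KO injured libraries and 9090 to 14354 in control injured libraries, did not overlap, and neither did the basal keratinocyte list (Krt5, Krt14, Krt15, Col17a1, Itgb4 and Lamb3), at 7499 to 10560 CPM in Nf1-KO injured and 12452 to 13843 CPM in control injured libraries. The macrophage list (C1qa, C1qb, Csf1r, Mrc1 and Cd68) stood at 390 to 1061 CPM in Nf1-KO injured libraries and 309 to 454 in control injured libraries, and the dermal fibroblast list (Col1a1, Col1a2, Col3a1, Dcn, Lum and Fbn1) at 9703 to 18209 CPM in Nf1-KO injured and 5948 to 16703 CPM in control injured libraries, so both overlapped. The part of keratinocyte content in the lower levels of the members was not tested.

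In uninjured skin no member was called, and the directions depended on library 3. EdgeR called 0 members, beside 0.0296% of all tested genes (0.0254% higher and 0.00423% lower), and 8 members had an unadjusted p under 0.05, beside 8.34% of all tested genes, while DESeq2 and limma voom called 0, with 8 and 7 at an unadjusted p under 0.05. Nf1-KO uninjured skin had the higher fitted level for 30 of 40 members, with a median log2 difference of 0.72 where that of all tested genes was -0.04. Without Nf1-KO library 3 it was higher for 12 of 40, with a median of -0.62, and without both libraries numbered 3 for 15 of 40, with a median of -0.19. Lor, Lce1a2, Lce1b and Lce1c were higher without overlap (4 of 40, beside 8.79% of all tested genes), and Ivl was lower without overlap (1 of 40, beside 6.04%). Lce1c stood at 574, 576 and 1188 CPM in Nf1-KO uninjured libraries, against 450, 460 and 457 CPM in control uninjured libraries (log2 difference 0.78, SE 0.25, adjusted p = 0.537). All 14 Lce1 genes had positive differences, Nf1-KO library 3 was the highest Nf1-KO uninjured library for each of them, and without it 7 of the 14 were positive and 7 negative.

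**Figure D5:**
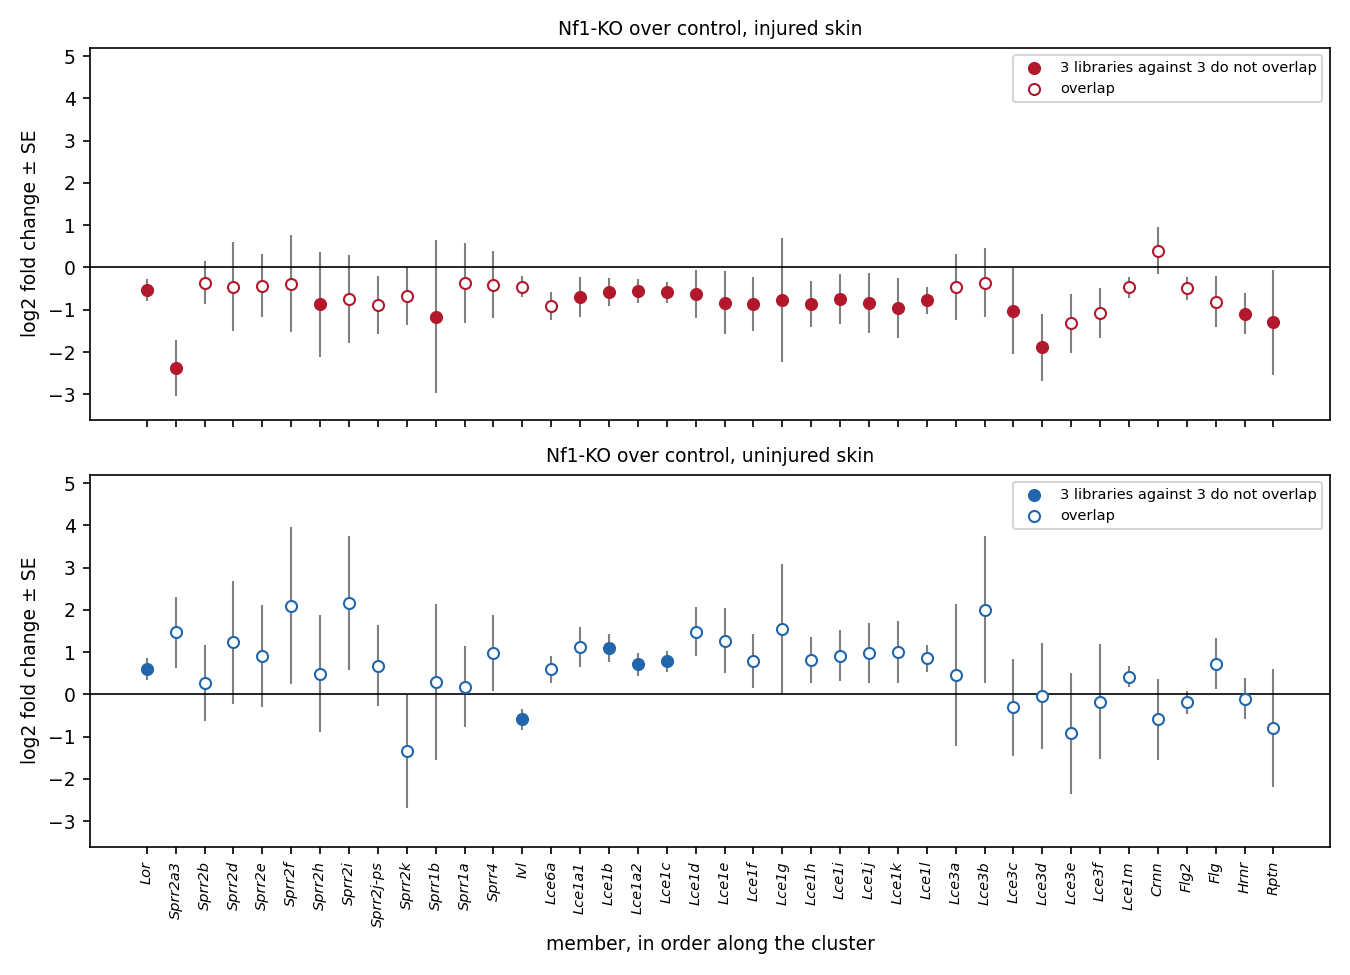
Log2 difference of Nf1-KO over control skin (points, with bars of 1 SE) for the 40 tested members in order along the cluster, in injured skin above and uninjured skin below. Filled points are genes whose 3 Nf1-KO and 3 control libraries do not overlap, 21 in injured skin (all lower in Nf1-KO) and 5 in uninjured skin, and no point passed an adjusted p of 0.05.

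The difference between the injury responses, Nf1-KO minus control, was tested directly. It was negative for 37 of 40 members, with a median of -1.48 where that of all tested genes was 0.17, and edgeR called 0 members and 0% of all genes. Without Nf1-KO uninjured library 3 it was negative for 23 of 40, with a median of -0.21, and without both uninjured libraries numbered 3 for 30 of 40, with a median of -0.74. Sprr1b, for example, had a difference of -1.45 with all libraries, 4.20 without Nf1-KO uninjured library 3 and -0.74 without both. An unadjusted p under 0.05 was seen for 10 members by edgeR, beside 10.8% of all tested genes, DESeq2 called 1 member (Lce1c, lower), and limma voom called 0. The 6 genes called lower in Nf1-KO skin and not in control skin had differences of -1.14 for Lor (SE 0.37), -1.52 for Lce6a (SE 0.46), -1.67 for Lce1b (SE 0.46), -1.26 for Lce1a2 (SE 0.40), -1.37 for Lce1c (SE 0.36) and -1.63 for Lce1l (SE 0.44), each with an adjusted p of 0.442. A genotype difference in the injury response was therefore not called for any of them. With no filter on low counts edgeR called these same 6 genes, so their side of the threshold depended on the filter.

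The enzymes and partners of envelope assembly were followed through lists of known genes. Of the transglutaminases Tgm1, Tgm3 and Tgm5, Tgm3, a main cross-linking enzyme of hair and upper epidermis, rose in both genotypes, at 33.1, 25.2 and 19.4 CPM in Nf1-KO injured against 4.03, 6.97 and 6.87 CPM in Nf1-KO uninjured libraries, and at 21, 13.2 and 22.3 CPM in control injured against 6.3, 3.76 and 7.82 CPM in control uninjured libraries (log2 fold change 2.12 in Nf1-KO and 1.65 in control skin, SE 0.32 each, adjusted p = 0.000123 and 0.000661, edgeR). Tgm1, the main transglutaminase of the envelope, was not called (0.02 in Nf1-KO and 0.40 in control skin). Tgm5 was called lower in Nf1-KO skin and not called in control skin. Among 7 genes of filaggrin processing, 2 rose in Nf1-KO skin and 3 in control skin and none fell. Of all tested genes, 19.1% were called higher and 18.4% lower in Nf1-KO skin, and 22.8% and 32.5% in control skin. Padi3, a deiminase of filaggrin and of hair proteins, rose by log2 7.27 (SE 0.61, adjusted p = 5.22e-06) in Nf1-KO skin and 6.81 (SE 0.59, adjusted p = 8.99e-06) in control skin. Padi1 rose by 5.24 (SE 0.52) in Nf1-KO skin and 4.65 (SE 0.50) in control skin on the log2 scale.

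Other envelope proteins mostly fell. Of 12 tested, 2 rose and 8 fell in Nf1-KO skin and 2 rose and 7 fell in control skin. Over all tested genes, 19.1% were called higher and 18.4% lower in Nf1-KO skin, and 22.8% and 32.5% in control skin. The risers were Cst6, a cystatin protease inhibitor that restrains cathepsins acting on transglutaminases, which was 2.41-fold higher in Nf1-KO skin (adjusted p = 0.0123) and 5.65-fold higher in control skin (adjusted p = 0.000111), and Cnfn, which encodes cornifelin and was 1.99-fold higher in Nf1-KO skin (adjusted p = 0.0215) and 4.46-fold higher in control skin (adjusted p = 0.00011). Ppl, which encodes periplakin, a linker of keratin filaments to the envelope, fell by 1.67 (SE 0.24, adjusted p = 8.61e-05) in Nf1-KO skin and by 1.52 (SE 0.24, adjusted p = 0.000173) in control skin.

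Markers of the growing hair follicle moved with skin state by far more than the epidermal keratins. The 7 inner root sheath genes (Krt25, Krt27, Krt28, Krt71, Krt73, Tchh and Tchhl1) all rose in both genotypes and summed to 15730, 29772 and 8876 CPM in Nf1-KO injured and 15850, 11367 and 18728 in control injured libraries, against 7.35, 5.44 and 73.1 CPM in Nf1-KO uninjured and 9.88, 10.1 and 12.7 in control uninjured libraries. Tchh encodes trichohyalin, an S100-fused protein of hair that is no member by the rule, and it rose by log2 8.95 (SE 0.90, adjusted p = 3.34e-05) in Nf1-KO and 8.88 (SE 0.90, adjusted p = 3.8e-05) in control skin. The 6 tested hair shaft keratins also all rose, with sums of 1317 to 4477 CPM in the 6 injured libraries and 1.16 to 6.14 CPM in the 6 uninjured ones. In Nf1-KO injured library 2, which had the highest inner root sheath sum, Crnn and Sprr4 were the highest of the injured libraries, and 24 members, among them Rptn and all 6 Lce3 genes, were the lowest. The part of hair follicle content in the rises of Crnn, Rptn, Padi3 and Tgm3 was not tested.

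Markers of wounded epidermis and of other cell types were followed in the same way. Of Krt6a, Krt6b, Krt16 and Krt17, Krt17 was called, rising by log2 1.33 (SE 0.33, adjusted p = 0.00519) in Nf1-KO and 2.08 (SE 0.33, adjusted p = 0.000179) in control skin, and the other 3 were not, with uninjured library 3 far above the other uninjured libraries. Among suprabasal keratins Krt77 fell by 2.57 (SE 0.25, adjusted p = 1.85e-06) in Nf1-KO and by 1.59 (SE 0.24, adjusted p = 0.000124) in control skin, and 3 of the 5 fell in Nf1-KO skin and 4 in control skin. The shares over all tested genes were 19.1% called higher and 18.4% lower in Nf1-KO skin, and 22.8% and 32.5% in control skin. All 6 dermal fibroblast genes rose in both genotypes, as did all 5 macrophage and all 5 skeletal muscle genes in Nf1-KO skin and 4 of 5 genes of each list in control skin. Their part in the values of the envelope genes was not tested.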

How the data were processed

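Total RNA of whole skin was extracted with an RNeasy kit for fibrous tissue, amplified with Smart-Seq v4 and made into Nextera XT libraries, per the labels' protocols. These kits do not mark strand. The deposited values are raw read counts per Ensembl gene, whole numbers not scaled by the authors. The submitters' processing notes name STAR 2.5.2b, SAMtools, HTSeq 0.5.3, DESeq2, HOMER and mm10, with no annotation version or strand setting stated there. Of the 53379 gene IDs, 53274 matched GENCODE M21, the source of symbols and exonic lengths. A column that belongs to no listed sample (1 in number) was not used.

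EdgeR 4.0.16 (R 4.3.3) was run on the 12 libraries as 1 model of 4 groups, after TMM scaling and filterByExpr (minimum count 10). Contrasts were tested by its robust quasi-likelihood F test, 2-sided, with p-values adjusted by Benjamini-Hochberg over 23635 genes. Library totals ran from 8817013 to 16809687 counts. Reads carry no molecular identifiers, so counting intervals cover counting error only. DESeq2 1.42.0, limma voom (limma 3.58.1) and the other settings of the closing section were alternatives, and the edgeR scripts were tested on simulated data.

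The members, gene lists and alternatives were chosen with earlier results of these data known. Values in every library are given for the 2 members of each family with the highest mean CPM per kilobase, for members called between genotypes, and for the top 3 called rises and top 3 called falls of each injury comparison. Other lists are named through their 3 best called genes by p in control skin, of which the text gives a selection. Flg, Rptn, Hrnr, Lce1g, Lce1b, Lce1c, Lce1k, Lce1a1, Sprr2a3, Sprr2k and the list genes Tgm1 and Tchh lie partly outside this rule and were named after their values were seen. The list of regulators of keratinocyte differentiation is not reported here. Promoters came from the RefSeq table of GRCm38.p6.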

Additional observations from a re-analysis of the deposited data

How the results depend on the processing

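The count of members called higher in Nf1-KO skin, 16, ran from 9 to 29 when 1 library was left out, was 8 after adding the share of ribosomal RNA-like counts to the model, and 29 without both uninjured libraries numbered 3, a setting chosen after seeing the data. In control skin the count of 26 ran from 18 to 31 when 1 library was left out, and was 17 with that covariate and 7 without control uninjured libraries 1 and 2. Members called lower stayed at 2 in control skin under every setting run and between 6 and 8 in Nf1-KO skin. Without Nf1-KO uninjured library 3, the log2 fold changes of Lce1d, Lce1i and Lce1j in Nf1-KO skin turned to 0.93, 0.94 and 1.50 (ranges over the fits without 1 library of -0.74 to 0.93, -0.84 to 0.94 and -0.70 to 1.50), and without both libraries numbered 3 to 0.86, 0.87 and 1.43. With no filter on low counts 3 members were called higher in Nf1-KO uninjured skin (Lce1b, Lce1c and Lce1l), 2 lower in Nf1-KO injured skin (Lce6a and Lce1l) and 6 lower for the difference between the responses, where DESeq2 called 1. Without both libraries numbered 3, 1 member was called lower in Nf1-KO injured skin. The cause of these changes was not tested, and the fits that left libraries out also had fewer samples.

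The main model did not pair samples by replicate number. Deviations of same-numbered libraries correlated between -0.103 and 0.38, and the same number was the best match in some cases only. Between genotypes in uninjured skin this held for library 2 (0.38, at most -0.096 with another number) and library 3 (0.217, at most 0.139), but not library 1. In injured skin it held for libraries 1 and 2 but not 3. Between skin states it held for control library 1 alone (0.05, at most 0.033). With a replicate block, 19 members were called higher and 8 lower in Nf1-KO skin, 29 higher and 2 lower in control skin, and 0 in the 3 other comparisons. Median-of-ratios scaling moved the median log2 fold change of all genes from -0.09 to -0.20 in Nf1-KO skin, and the calls of members in both injury comparisons were kept. All-gene calls also depended on the setting: in control skin 7679 genes were called lower, 12865 with no filter, 12332 with DESeq2 and 3744 without control uninjured libraries 1 and 2, where 2420 were called higher in place of 5393. In Nf1-KO skin 4345 were called lower, and 2520 with the covariate. Between genotypes at most 7 genes were called by edgeR, and with no filter 170 higher and 49 lower in uninjured skin and 284 higher and 126 lower in injured skin, where DESeq2 called 35 and 25 in uninjured skin and 63 and 61 in injured skin. Members near 0 counts in uninjured skin limit the precision of the large rises.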

Other observations

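Within injured skin the members did not follow 1 order of libraries. Control injured library 3 was the highest of the 6 injured libraries for 19 members, among them Sprr1a, Sprr1b, Ivl and 5 of the 6 Lce3 genes, and control injured library 2 for 13, among them Lor, Flg, Flg2, Hrnr, Rptn and Lce1m. Nf1-KO injured library 1 was the highest for 5 members, namely Sprr2b, Sprr2d, Sprr2e, Sprr2f and Lce3b. Nf1-KO injured library 3 was the lowest for 13 members, among them Crnn, Flg, Flg2 and Sprr1a. These are values of single libraries, and no test was made of them.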
